A study of Mus musculus with 4 samples.

Results

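The limb mesenchyme transcription factors described here are 9 of the 32285 genes in the count tables: *Prrx1*, *Prrx2*, *Twist1*, *Twist2*, *Pitx1*, *Tbx15*, *Msx1*, *Msx2* and *Shox2*. They were taken by gene symbol and followed across the mesenchymal cell classes, the tenocytes and the mural cells (pericytes and vascular smooth muscle) of mouse fracture callus. Callus was collected from 3-month-old male wild-type C57BL/6J mice at 4 or 7 days postfracture (dpf) of the right tibia, from mice given vehicle (control callus) or K/BxN serum, which carries arthritis-inducing autoantibodies (RA callus). Each of the 4 conditions was 1 library made from 1 pool of callus, with 4 mice per pool in the labels and 3 in the study's methods, and 10000 cells were loaded per library for 3′ droplet scRNA-seq. Cells were released by enzyme digestion from callus scraped off the bone. With 1 library per condition there is no replicate check and no test between conditions: every interval below is a 95% interval that covers counting error only, and treatment, pool and library cannot be told apart. The study asked how systemic inflammation alters the cells of the callus, and the comparison of RA with control callus addresses that question for these 9 genes.

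All 9 genes encode DNA-binding regulators expressed in the mesenchyme of the embryonic limb bud, among other tissues, and many of them stay on in connective tissue cells of the adult limb. Homeodomain proteins of the Prrx, Msx, Shox and Pitx families, the basic helix-loop-helix proteins Twist1 and Twist2, and the T-box protein Tbx15 shape how limb cells proliferate, condense and differentiate into cartilage, bone, tendon and connective tissue. The Twist proteins hold back osteoblast and chondrocyte differentiation and bind DNA as dimers with E proteins, for which Id proteins compete. *Pitx1* is a hindlimb identity gene, expressed in the leg and not in the arm.

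A total of 25479 cells passed the study's stated limits (5470, 7676, 4110 and 8223 in the control 4 dpf, control 7 dpf, RA 4 dpf and RA 7 dpf libraries), with median depths of 16094 to 17632 unique molecules (UMIs) per cell, and 5 to 15 cell barcodes shared between any pair of libraries. Clustering made without the 9 genes gave 5 mesenchymal classes with 8268 cells in all: committed mesenchymal progenitors (3002 cells), cycling mesenchymal cells (365), chondrogenic cells (391), fibroblast precursors (2221) and fibroblasts (2289). Tenocytes (820 cells) and mural cells (830) were kept apart. These names mark likeness by marker genes, so each class is read as progenitor-like, fibroblast-like and so on, with the ending left out below. None of the 9 genes helped to name a class, although the study itself used *Prrx1* as a mesenchymal marker. The clusters were named by marker genes, so the marker levels describe the names and do not test them: *Col2a1*, the cartilage collagen gene, was at 20785 CPM (counts scaled to a common total per class and library) in the chondrogenic class and 58.9 in the other mesenchymal classes, *Tnmd* was at 1440 CPM in tenocytes against 53.0, and *Rgs5* was at 3610 CPM in mural cells against 6.28. Committed progenitors were set apart less sharply, with *Postn* at 4521 CPM against 3591, *Cthrc1* at 958 against 748 and *Tnc* at 605 against 182. In the chondrogenic class 211 of the 391 cells were in a cluster led by *Ibsp*, a bone matrix gene, followed by the cartilage genes *Sox6*, *Col9a3* and *Acan*, and no cluster could be named osteogenic. In each library the UMIs of a class were summed and expressed as CPM, and levels are compared between classes and libraries for 1 gene at a time, never between genes. The chondrogenic class held 1 and 3 cells at 4 dpf, so its levels are given at 7 dpf only.

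The promoters of the paralog pairs Prrx1 and Prrx2, and Msx1 and Msx2, are shown because these homeobox paralogs are set side by side below: the Prrx genes differed in their order of cell classes, and the Msx genes both leaned to mural cells at very different levels of detection. Each is the window from 250 bases before to 50 bases after the RefSeq transcription start (GRCm38.p6), printed 5′ to 3′ on the gene's own strand, with capitals marking TAATTA, the palindromic core that many homeodomain proteins bind. The windows are chr1:163313601-163313900 (minus strand, *Prrx1*), chr2:30845117-30845416 (plus strand, *Prrx2*), chr13:53472731-53473030 (minus strand, *Msx2*) and chr5:37824536-37824835 (minus strand, *Msx1*).
Prrx1: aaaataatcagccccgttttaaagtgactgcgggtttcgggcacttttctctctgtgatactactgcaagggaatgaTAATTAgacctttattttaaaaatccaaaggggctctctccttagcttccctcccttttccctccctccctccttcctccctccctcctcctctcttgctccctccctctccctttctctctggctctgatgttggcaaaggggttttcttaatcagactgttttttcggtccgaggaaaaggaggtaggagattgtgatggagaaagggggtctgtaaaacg
Prrx2: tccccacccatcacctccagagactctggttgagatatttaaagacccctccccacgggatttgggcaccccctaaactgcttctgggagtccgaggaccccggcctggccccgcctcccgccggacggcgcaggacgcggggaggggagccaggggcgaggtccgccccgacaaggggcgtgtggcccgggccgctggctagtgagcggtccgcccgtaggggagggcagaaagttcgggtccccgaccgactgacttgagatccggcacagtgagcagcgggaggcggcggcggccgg
Msx2: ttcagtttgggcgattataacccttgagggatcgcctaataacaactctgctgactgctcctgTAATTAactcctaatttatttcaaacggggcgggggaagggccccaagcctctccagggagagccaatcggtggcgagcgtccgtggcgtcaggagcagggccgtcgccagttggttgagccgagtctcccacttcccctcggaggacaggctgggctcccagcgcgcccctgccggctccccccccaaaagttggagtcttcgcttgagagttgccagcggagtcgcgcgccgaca
Msx1: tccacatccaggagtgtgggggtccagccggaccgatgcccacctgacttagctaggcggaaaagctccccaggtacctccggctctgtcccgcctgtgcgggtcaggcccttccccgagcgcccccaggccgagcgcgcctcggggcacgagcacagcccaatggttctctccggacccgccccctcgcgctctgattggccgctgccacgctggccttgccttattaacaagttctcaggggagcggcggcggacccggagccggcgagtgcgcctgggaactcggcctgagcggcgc
TAATTA lay at -173 from the start of *Prrx1* and at -187 from that of *Msx2*, and in none of the other 5 promoters on hand, those of *Prrx2*, *Twist1*, *Twist2*, *Msx1* and *Shox2*. It occurred in 5.31% of 27025 promoters of the same length. CATCTG, an E-box of the kind Twist dimers bind, searched on both strands, was in 0 of the 7 promoters and in 17.2% of all. The promoters also differed in base composition, with a GC content of 47.7% for *Prrx1*, 70.3% for *Prrx2*, 70% for *Msx1* and 61% for *Msx2* against a median of 52.7% over all promoters. A match describes these letters only and marks no binding site.

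*Prrx1*, the paired-related homeobox gene widely used to label limb skeletal progenitors, was detected in nearly every mesenchymal cell. After each cell was thinned to 4000 UMIs, 80.6% of mesenchymal cells held a *Prrx1* UMI, against 1.61% of myeloid cells and 1.87% of endothelial cells, which should lack it (98.1%, 5.04% and 6.99% before thinning, at median depths of 25870, 13130 and 15642.5 UMIs). Thinned mesenchymal cells held a UMI of 2.71 of the 9 genes on average, against 0.0458 in myeloid and 0.102 in endothelial cells. The thinned shares of the other 7 genes apart from *Msx2* ran from 7.34% of mesenchymal cells for *Pitx1* to 50.8% for *Tbx15*, and none of them passed 0.724% in myeloid cells. In endothelial cells *Msx1* reached 4.33%, against 7.81% in mesenchymal cells, and the rest of these 7 genes at most 1.07%.

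Across classes *Prrx1* had its highest level in the fibroblast precursors, the *Pi16* class, in all 4 libraries: 671 CPM in control 4 dpf, 633 in control 7 dpf, 774 in RA 4 dpf and 792 in RA 7 dpf. Fibroblasts, second over all libraries, were at 569, 481, 665 and 616 CPM, with tenocytes above them in control 7 dpf (566 CPM) and cycling cells in RA 7 dpf (643 CPM). The precursor level was 1.26 times that of fibroblasts over all libraries (interval 1.25 to 1.28), with a range of 1.16 to 1.32 over the single libraries, and 1.39 times that of committed progenitors (1.24 to 1.54 over libraries). Committed progenitors, cycling cells, mural cells and tenocytes, at 526, 526, 515 and 513 CPM over all libraries, changed places from library to library and are not ordered. Chondrogenic cells were lowest, at 219 CPM in control and 261 CPM in RA callus at 7 dpf, and committed progenitors stood 2.11 and 2.27 times above them. Within the chondrogenic class the *Ibsp*-led cluster held 1.61 times the *Prrx1* of the *Col2a1*-led cluster.

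*Prrx2*, its paralog, had another order. Its level over all mesenchymal classes was 133, 118, 134 and 108 CPM in control 4 dpf, control 7 dpf, RA 4 dpf and RA 7 dpf. Tenocytes (107, 175, 121 and 157 CPM) and committed progenitors (163, 139, 132 and 139 CPM) were highest over all libraries but exchanged places with each other and with fibroblasts between libraries, and precursors, the top class for *Prrx1*, were at 91.3, 99.6, 129 and 85.0 CPM. The sharpest difference between the paralogs was in mural cells. There *Prrx2* was at 1.44 CPM (3 UMIs) in control 4 dpf, 13.6 (48 UMIs) in control 7 dpf, 2.94 (4 UMIs) in RA 4 dpf and 9.45 (54 UMIs) in RA 7 dpf, below every mesenchymal class in every library compared, while mural *Prrx1* was at 528, 438, 463 and 570 CPM. Over all libraries fibroblasts held 14.1 times the mural *Prrx2* level (11.7 to 17.2), and without the cells called doublets mural *Prrx2* was lower still, at 5.08 CPM.

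**Figure D1:**
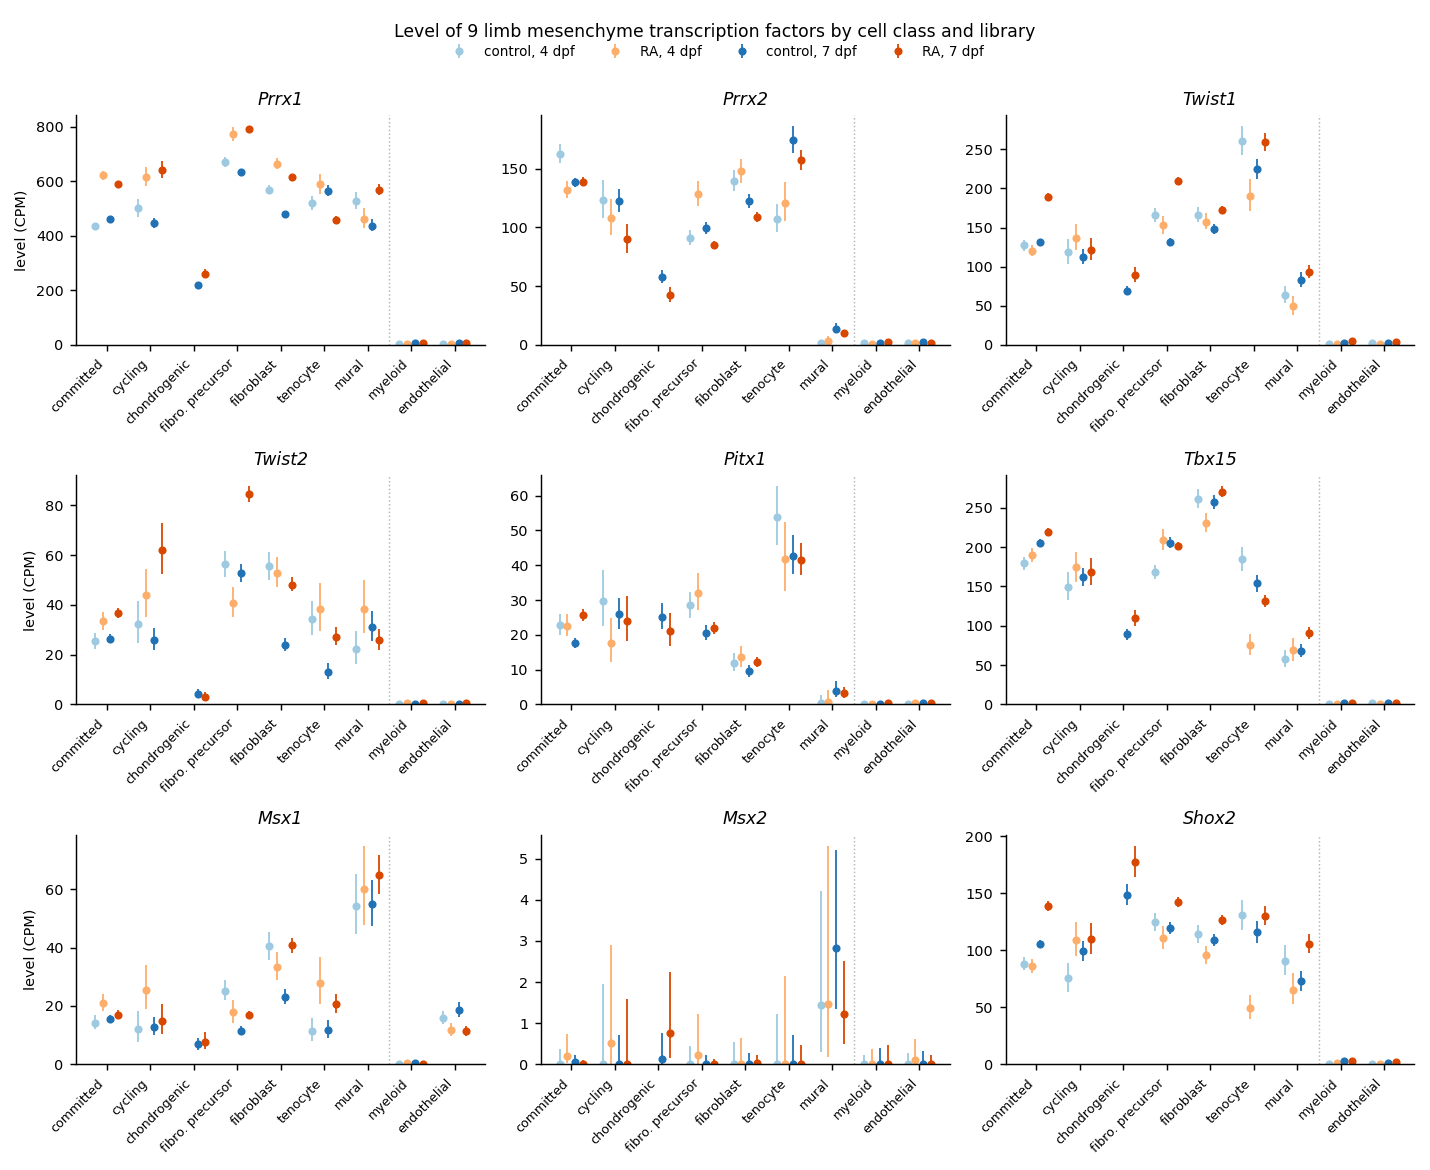
Level of each of the 9 genes (CPM, linear axis, scaled per gene) in each cell class and, right of the dotted line, in myeloid and endothelial cells, with 1 point per library and bars for 95% Poisson intervals of counting error. *Prrx1* was above 200 CPM in all 7 classes, whereas *Prrx2* and *Pitx1* dropped in mural cells and *Msx1* was highest there.

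*Twist1* was highest in tenocytes in every library, at 261 CPM in control 4 dpf, 225 in control 7 dpf, 191 in RA 4 dpf and 259 in RA 7 dpf. This was 1.36 times the level of precursors (1.24 to 1.71 over libraries) and 1.49 times that of fibroblasts (1.21 to 1.57). Precursors and fibroblasts, at 178 and 163 CPM over all libraries, exchanged places between libraries. Mural cells (63.0, 82.4, 49.2 and 93.4 CPM) and chondrogenic cells (68.8 and 89.8 CPM at 7 dpf) formed the low end.

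*Twist2*, the second Twist gene, had its highest pooled level not in tenocytes but in fibroblast precursors, at 56.3, 52.8, 40.8 and 84.4 CPM in control 4 dpf, control 7 dpf, RA 4 dpf and RA 7 dpf. Precursors stood above committed progenitors in all 4 libraries (2.22 times over all, 1.22 to 2.30 over libraries), but not above fibroblasts in RA 4 dpf, where fibroblasts held 52.8 CPM. In tenocytes *Twist2* was at 34.4, 13.1, 38.3 and 27.3 CPM, below the pooled level of the mesenchymal classes (43.1 CPM) in each library. Chondrogenic cells held almost none, 4.36 CPM in control and 2.83 CPM in RA callus at 7 dpf, and the *Col2a1*-led cluster was at 0.883 CPM, 0.0195 times the level of the other mesenchymal classes (0.00633 to 0.0455). With a looser cell filter the chondrogenic level was 11.9 CPM against 45.3. So both Twist genes were low in the chondrogenic class, and they parted in the tenocytes.

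*Pitx1* was the member with the clearest tenocyte pattern: 53.7, 42.8, 41.7 and 41.6 CPM in control 4 dpf, control 7 dpf, RA 4 dpf and RA 7 dpf, higher than in any mesenchymal class of the same library. Over all libraries tenocytes held 3.81 times the *Pitx1* of fibroblasts (3.42 to 4.24, and 3.09 to 4.48 over single libraries) and 2.01 times that of committed progenitors. Fibroblasts were the lowest mesenchymal class, at 12, 9.55, 13.5 and 12.1 CPM, and the intervals of their ratios to precursors and to committed progenitors lay below 1 in every library. Cycling, chondrogenic, precursor and committed cells, at 24.7, 23.7, 23.2 and 21.9 CPM, are not ordered. Mural cells were at 0.481, 3.96, 0.734 and 3.15 CPM.

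*Tbx15*, a T-box gene needed for normal growth of limb skeletal elements, was highest in fibroblasts in all 4 libraries, at 261, 257, 231 and 271 CPM in control 4 dpf, control 7 dpf, RA 4 dpf and RA 7 dpf. Fibroblasts stood 1.27 times above committed progenitors (1.22 to 1.45 over libraries) and 1.31 times above precursors (1.11 to 1.56), and those 2 classes, at 206 and 199 CPM over all libraries, are not ordered. Tenocytes varied more between libraries, at 185, 154, 75.4 and 131 CPM. Mural cells were lowest, at 57.7, 68.2, 69.0 and 90.8 CPM.

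*Shox2*, a short stature homeobox gene required for growth of the proximal limb skeleton, was the 1 member highest in chondrogenic cells at 7 dpf, with 149 CPM in control and 177 CPM in RA callus. Chondrogenic cells held 1.39 times the level of committed progenitors (1.32 to 1.47, and 1.28 and 1.41 in the single libraries). The *Col2a1*-led cluster was at 171 CPM over all libraries against 146 CPM in the *Ibsp*-led cluster, but the clusters are not ordered. The *Col2a1*-led and *Ibsp*-led levels were 173 and 127 CPM in control 7 dpf, and 169 and 189 CPM in RA 7 dpf. The remaining mesenchymal classes lay between 75.4 and 142 CPM and overlapped over libraries. *Shox2* and *Pitx1* were the members of the 8 compared that were not past 2-fold lower in chondrogenic cells. The other 6 were, beside 11.3% of all genes compared between chondrogenic cells and the other mesenchymal classes. With a looser cell filter, which put 914 cells in the class, 51 and 40 of them at 4 dpf, only *Twist2* was, and *Prrx2* was at 106 CPM against 109 in the other mesenchymal classes. Under the remaining 5 alternatives, like this one chosen after seeing the data, the count was 6, and since the clusters were made from these same cells this is a description without a test.

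The Msx genes, homeobox genes of the distal limb bud and targets of BMP signalling, were the members that leaned to the vessel wall. *Msx1* was highest in mural cells in every library, at 54.3 CPM in control 4 dpf, 54.9 in control 7 dpf, 60.2 in RA 4 dpf and 64.7 in RA 7 dpf. Fibroblasts came next, at 40.4, 23.2, 33.4 and 40.7 CPM, and mural cells stood 1.70 times above them (1.56 to 1.86, and 1.34 to 2.37 over libraries). Of the mural clusters described below, the *Myh11*-led one was at 88.5 CPM over all libraries. The *Rgs5*-led one was at 34.5 CPM, against 35.1 in fibroblasts, and was below fibroblasts in control 4 dpf, RA 4 dpf and RA 7 dpf. In the remaining mesenchymal classes *Msx1* was between 6.81 and 25.6 CPM. Endothelial cells also held *Msx1*, at 16.0, 18.6, 11.9 and 11.3 CPM, against 0.258 CPM over all myeloid cells. Thinned to 4000 UMIs, 19.3% of mural and 7.81% of mesenchymal cells held an *Msx1* UMI against 0.0658% of myeloid cells (45.4%, 31.6% and 0.362% before thinning, and the median mural depth was 12977 UMIs). The endothelial share was 4.33% after thinning and 14.5% before.

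*Msx2* was at the edge of detection. The 8268 mesenchymal cells held 11 of its UMIs in all (0, 3, 4 and 4 in control 4 dpf, control 7 dpf, RA 4 dpf and RA 7 dpf), and 0 of the 820 tenocytes held one, which allows a share of up to 0.366% of cells with a UMI. The 830 mural cells held 22 UMIs (3, 10, 2 and 7), or 1.73 CPM (1.09 to 2.62), 34.5 times the mesenchymal level (16.0 to 78.7). Myeloid cells held 0 UMIs of *Msx2* and endothelial cells 1. Of its mesenchymal UMIs 4 were in the chondrogenic class, all in its *Ibsp*-led cluster. With so few UMIs, differences in *Msx2* between conditions were not detectable at this depth.

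The mural cells formed 2 clusters, led by *Rgs5*, a pericyte gene, and by *Myh11*, the smooth muscle myosin gene, and several of the 9 genes split along them. *Prrx1* was at 830, 591, 835 and 882 CPM in the *Rgs5*-led cluster (control 4 dpf, control 7 dpf, RA 4 dpf, RA 7 dpf) and at 196, 200, 217 and 232 CPM in the *Myh11*-led cluster, with no overlap. The ratio was 3.59 (3.38 to 3.82, and 2.96 to 4.24 over libraries), and in 3 of the 4 libraries the *Rgs5*-led level was above that of the fibroblast precursors. *Twist1* had the same order in all 4 libraries (87.3, 108, 81.1 and 138 CPM against 36.3, 42.5, 28.1 and 44.8 CPM, ratio 2.86, 2.47 to 3.31). *Shox2* was also higher in the *Rgs5*-led cluster over all libraries, 2.60 times (2.27 to 2.98), with an interval above 1 in 3 of 4 libraries. *Twist2* was 2.21 times higher over all, but the lowest of its 4 library ratios was 0.994. *Tbx15* was at 62.5, 81.5, 66.4 and 111 CPM in the *Rgs5*-led and 52.5, 47.6, 70.8 and 68.9 CPM in the *Myh11*-led cluster, so that RA 4 dpf had the other order. *Msx2*, on 10 and 12 UMIs, is not ordered.

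*Msx1* ran the other way. It was at 91.8, 77.2, 84.2 and 94.4 CPM in the *Myh11*-led cluster and at 20.2, 40.5, 24.0 and 37.3 CPM in the *Rgs5*-led cluster, again without overlap, a ratio of 2.56 (2.19 to 3.01, and 1.90 to 4.54 over libraries). Against the mesenchymal classes the *Myh11*-led cluster had 7 of the 8 members compared past 2-fold lower and *Msx1* past 2-fold higher, where 13.4% and 10.6% of all genes were past 2-fold in these directions. The *Rgs5*-led cluster had 3 lower (7.22% of all genes), *Prrx2*, *Pitx1* and *Tbx15*, and none higher.

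Of the *Rgs5*-led cells 8.42% were called doublets, against 2.32% of all cells. With those left out (370 of 404 cells kept), *Prrx1* in the *Rgs5*-led cluster went from 777 to 814 CPM, *Twist1* from 116 to 114 and *Shox2* from 126 to 127. The fibroblast genes did move, *Pdgfra* from 28.3 to 5.54 CPM (282 CPM in mesenchymal cells) and *Dcn* from 445 to 140 CPM (3610 CPM in mesenchymal cells), and so did *Prrx2*, from 13.5 to 6.92 CPM.

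**Figure D2:**
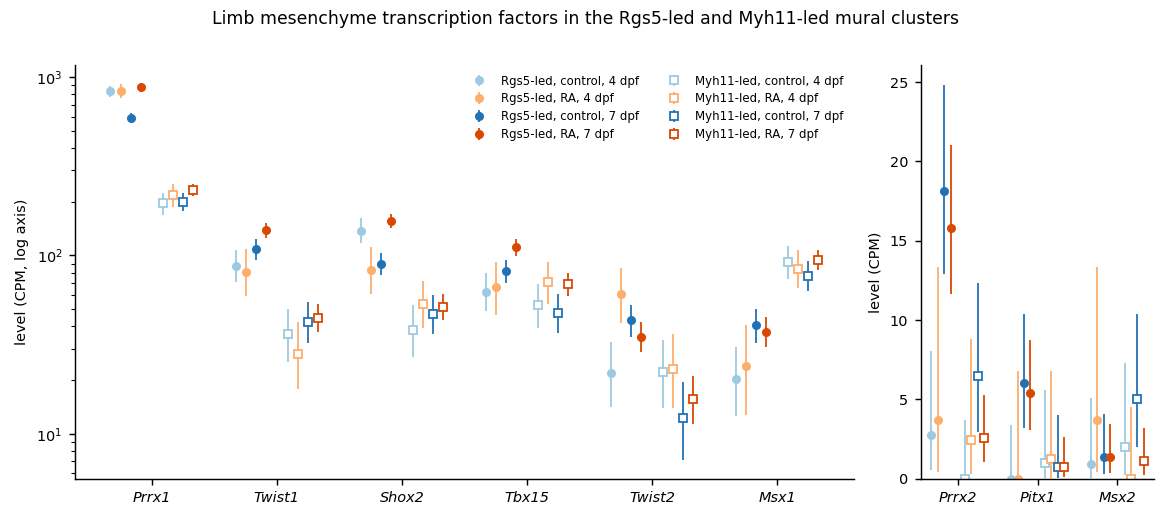
Level (CPM, log axis for 6 genes at the left and linear axis for *Prrx2*, *Pitx1* and *Msx2* at the right) in the *Rgs5*-led and *Myh11*-led mural clusters, 1 point per library with 95% Poisson intervals of counting error. *Prrx1* and *Twist1* were higher in the *Rgs5*-led cluster and *Msx1* in the *Myh11*-led cluster in all 4 libraries.

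In RA against control callus, 0 of the 8 members compared were past 2-fold over all mesenchymal classes, at 4 dpf (1.73% of 13958 genes were, in either direction) and at 7 dpf (2.91% of 17120 genes). At 7 dpf 7 of the 8 ratios were above 1 with a median log2 ratio of 0.37, beside -0.04 over all genes compared. The share of all genes with a ratio above 1 on each day is given in the last paragraph. At 4 dpf the median was -0.01, beside 0.02 over all genes. *Msx2*, under 50 UMIs over both libraries, was left out of these counts. The make-up of the sum also differed between the libraries. Committed progenitors were 33.4%, 42.4%, 41.8% and 31% of it and precursors 29.8%, 21.5%, 20.3% and 31.9% in control 4 dpf, control 7 dpf, RA 4 dpf and RA 7 dpf. Fibroblasts were 30.5%, 21.8%, 29.5% and 31.5% of it in the same order. At 7 dpf chondrogenic cells, where most members were low, were 8.41% in control and 3.63% in RA callus, and cycling cells 5.92% and 2.06%. The ratios of the sum carry this make-up, so each member is also given within classes.

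*Prrx1* was higher in the RA library on both days. In the mesenchymal classes together it was at 545 CPM in control 4 dpf and 664 in RA 4 dpf, and at 478 in control 7 dpf and 652 in RA 7 dpf, so that both RA values lay above both control values. RA callus thus held 1.22 times the control level at 4 dpf (interval 1.19 to 1.25) and 1.36 times at 7 dpf (interval 1.35 to 1.38). At 7 dpf the ratio was above 1, interval included, in 6 of 7 classes, from 1.19 in chondrogenic cells to 1.44 in cycling cells. It was 1.25 in precursors, 1.28 in committed progenitors, 1.28 in fibroblasts and 1.30 in mural cells. Of the classes in the sum, cycling cells alone were above the ratio of the sum. In tenocytes the ratio was below 1 (566 CPM in control and 458 in RA, 0.809, 0.770 to 0.849). The tenocyte direction depended on the clustering: it was 1.10 where the libraries were not integrated and 1.06 at a coarser resolution, 2 of 6 alternatives chosen after seeing the data.

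*Prrx2* did not follow its paralog. Its mesenchymal ratio was 1.00 on the earlier day (0.956 to 1.05) and 0.913 on the later (0.887 to 0.939), when it was the 1 member lower in RA at 7 dpf. Within classes its 7 dpf interval lay below 1 in 5 of 7, with ratios down to 0.730 in cycling cells and 0.733 in chondrogenic cells. Under 6 alternatives chosen after seeing the data the ratio ran from 0.704 to 1.24 in chondrogenic cells and from 0.882 to 1.07 in fibroblasts. Each was below 1 in 5 of 6. Mural cells had the lowest ratio, 0.695, with an interval of 0.463 to 1.05 that included 1 (0.227, 0.111 to 0.435, without the cells called doublets), and committed progenitors, at 139 CPM in both libraries, had a ratio of 1.00.

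In the mesenchymal classes together *Twist1* and *Twist2* were both higher in RA at 7 dpf and not at 4 dpf. *Twist1* was at 148 CPM in control 4 dpf and 138 in RA 4 dpf, and at 127 in control 7 dpf and 186 in RA 7 dpf, with ratios of 0.931 (0.888 to 0.977) and 1.46 (1.43 to 1.5). At 7 dpf the *Twist1* ratio reached 1.59 in precursors (1.52 to 1.67) and 1.44 in committed progenitors (1.39 to 1.5), and was nearest 1 in tenocytes (1.15) and fibroblasts (1.16) among the classes with an interval above 1. *Twist2* was at 42.9, 29.5, 40.8 and 54.8 CPM in control 4 dpf, control 7 dpf, RA 4 dpf and RA 7 dpf, so that its lowest and its highest value were the 7 dpf pair. Within classes at 4 dpf the *Twist2* interval lay above 1 in 2 of 6, committed progenitors (1.32) and mural cells (1.73). It lay below 1 in 1, the precursors (0.724).

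The *Twist2* ratio at 7 dpf, 1.86 in all mesenchymal classes (1.77 to 1.95), was the largest of the members. It was 2.38 in cycling cells (1.87 to 3.03), 2.09 in tenocytes (1.58 to 2.79), 2.01 in fibroblasts (1.78 to 2.28), 1.60 in precursors (1.48 to 1.73) and 1.39 in committed progenitors, and below 1 in mural cells (31.1 CPM in control and 25.7 in RA, 0.826) with an interval that included 1 (0.641 to 1.07). Cycling cells and tenocytes passed 2-fold by the log2 measure used for counting, which adds 1 CPM to each level, where 2.49% and 1.47% of all genes were higher by that much. Under 6 alternatives chosen after seeing the data the cycling ratio ran from 1.71 to 2.42 and the tenocyte ratio from 1.78 to 2.29. In fibroblasts the control level was 55.5 CPM at 4 dpf and 24.0 at 7 dpf (0.432, 0.372 to 0.502, with 2.74% of genes past 2-fold lower) while RA was at 52.8 and 48.2 CPM.

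**Figure D3:**
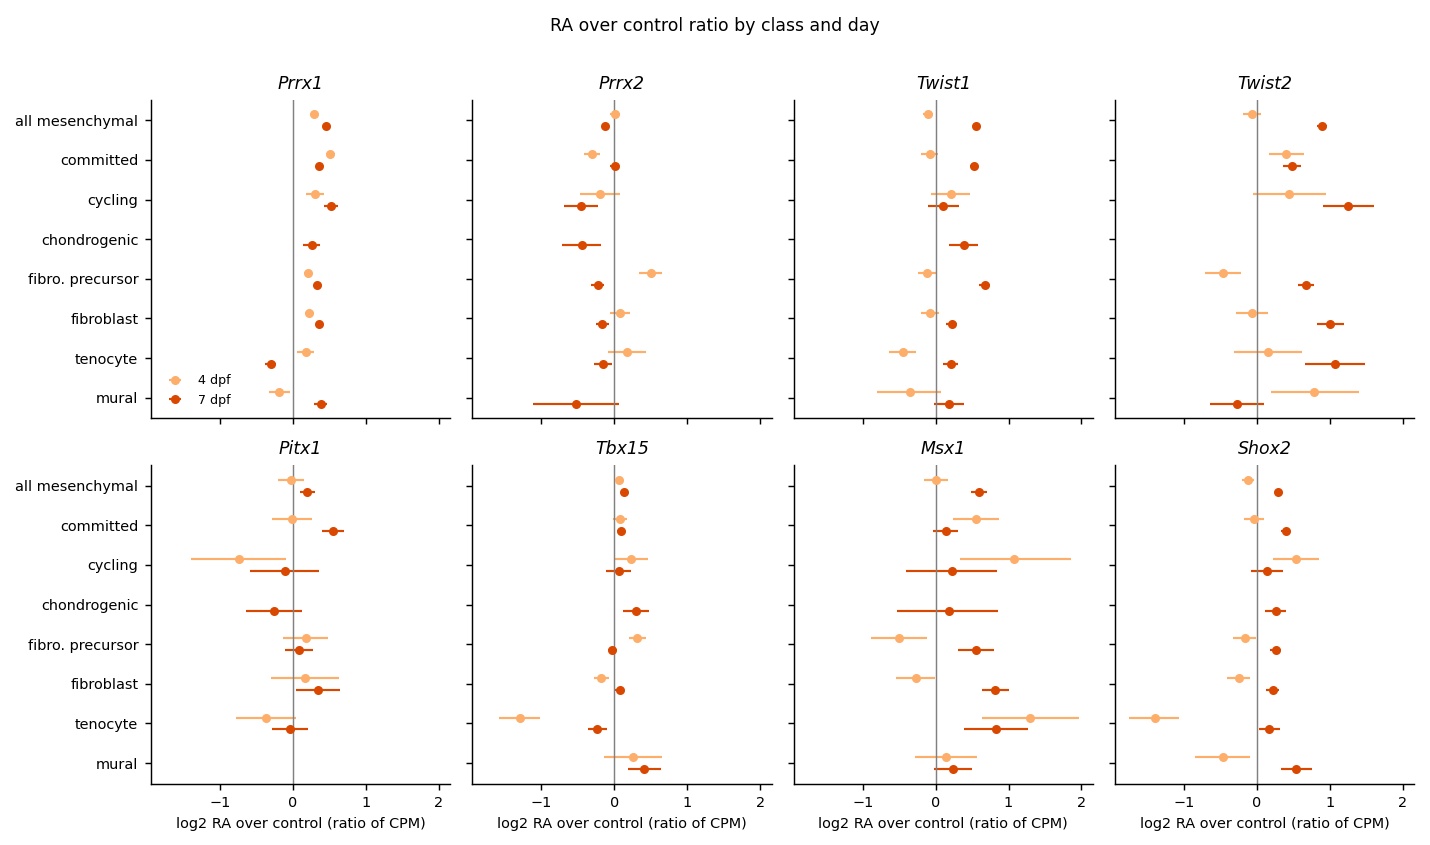
RA to control ratio (log2 axis, with 95% counting intervals) of the 8 members other than *Msx2* at 4 and 7 dpf, in the mesenchymal classes together and in each class. At 7 dpf *Twist2* has the largest mesenchymal ratio, 1.86, and *Prrx2* is the member below 1, at 0.913.

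*Msx1* and *Shox2* followed the Twist genes in being higher in RA at 7 dpf. *Msx1* was at 24.1 and 24.2 CPM in control and RA callus at 4 dpf (1.00, 0.894 to 1.13) and at 15 and 22.6 CPM at 7 dpf (1.51, 1.40 to 1.62), with its largest 7 dpf ratios in tenocytes (1.77, 1.31 to 2.42) and fibroblasts (1.76, 1.55 to 2.00). Precursors, at 1.46, also had an interval above 1. In the other 4 of 7 classes the interval included 1, with ratios of 1.10 in committed progenitors, 1.17 in cycling, 1.13 in chondrogenic and 1.18 in mural cells. As for *Twist2*, the control 7 dpf library was the low one of the 4. *Shox2* was at 105 and 96.1 CPM at 4 dpf (0.916, 0.865 to 0.969) and at 113 and 138 CPM at 7 dpf (1.22, 1.19 to 1.25). Within classes its 7 dpf interval lay above 1 in 6 of 7, with ratios from 1.10 to 1.46 over the 7 classes. *Pitx1*, at 22.3, 18.1, 21.8 and 20.7 CPM, had a ratio of 0.980 at 4 dpf (0.868 to 1.11) and 1.14 at 7 dpf (1.07 to 1.23), the latter led by committed progenitors at 1.46 (1.32 to 1.63). Its 7 dpf interval included 1 in 4 of the 6 classes compared. *Tbx15*, at 194, 201, 202 and 220 CPM, had ratios of 1.04 and 1.10 (1.08 to 1.12). Within classes its 7 dpf interval lay above 1 in 4 of 7 and below 1 in 1, the tenocytes (0.852). The 7 dpf ratio was 1.06 in committed progenitors, 1.05 in fibroblasts, 1.04 in cycling cells and 0.981 in precursors, all below the ratio of the sum. It was 1.23 in chondrogenic and 1.33 in mural cells.

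In the *Rgs5*-led mural cluster at 7 dpf *Shox2* was at 89.4 CPM in control and 156 in RA callus (1.75, 1.47 to 2.08) and *Prrx1* at 591 and 882 CPM (1.49, 1.39 to 1.60). In the *Myh11*-led cluster the *Prrx1* ratio was 1.16 and the *Tbx15* ratio 1.45, and *Shox2* was at 46.9 CPM in control and 51.4 in RA callus. *Tbx15* was higher in RA in the *Rgs5*-led cluster too, at 81.5 CPM in control and 111 in RA callus. Without the cells called doublets the control and RA levels in this cluster were 79.5 and 99.7 CPM for *Tbx15*. They were 94.45 and 157 CPM for *Shox2* and 635 and 941 CPM for *Prrx1*. The difference between the clusters was not tested. No member compared was past 2-fold in mural cells in RA against control, where 2.15% of genes were at 4 dpf and 1.72% at 7 dpf.

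Tenocytes at 4 dpf were the class with most members past 2-fold, 3 of 8, beside 5.65% of all genes. *Shox2* was at 130 CPM in control (391 UMIs) and 49.3 in RA callus (85 UMIs), a ratio of 0.378 (0.295 to 0.478), while at 7 dpf it was at 116 and 130 CPM. *Tbx15* was at 185 CPM in control and 75.4 in RA callus (0.408, 0.335 to 0.495). *Msx1* was higher, at 11.3 CPM in control (34 UMIs) and 27.8 in RA callus (48 UMIs), a ratio of 2.45 (1.55 to 3.92). In the other classes at 4 dpf 1 member was past 2-fold, *Msx1* in cycling cells. It was at 12.2 CPM in control (23 UMIs) and 25.6 in RA callus (49 UMIs), a ratio of 2.10 (1.25 to 3.61, with 2.66% of genes past 2-fold higher). Under 6 alternatives chosen after seeing the data this ratio ran from 1.51 to 2.19. No member was past 2-fold in committed progenitors, fibroblast precursors or fibroblasts, at 4 dpf (2.01%, 4.74% and 1.73% of genes) or at 7 dpf (2.53%, 3.95% and 2.37%), nor in chondrogenic cells at 7 dpf (2.75%). Among tenocytes the RA 4 dpf library was, for *Shox2* and *Tbx15*, the low one of all 4, and for *Msx1* it was the high one.

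These values rest on 93 RA and 133 control tenocytes. The RA tenocytes were also shallower (median 16233 against 21661 UMIs) and held more transcripts of other lineages, with the 5 neutrophil markers summing to 126 CPM against 6.68 (1 and 2 of them at 0), the 6 myeloid markers to 330 against 142 (none at 0) and the 5 endothelial markers to 56.8 against 25.7 (1 and 3 at 0), while the 4 erythroid markers summed to 8.11 against 352 (2 and 1 at 0). At 7 dpf the tenocyte neutrophil sum was at 101 CPM in control and 13.8 in RA callus. Their tendon genes differed as well, since *Kera* was at 695 CPM against 1771 and *Thbs4* at 11679 against 7549, while *Scx*, the tendon lineage factor, was at 333 against 276. The part of these differences in the 3 member ratios was not tested. With a coarser clustering, which put 132 RA and 185 control cells in the class, the *Shox2* ratio was 0.620 and the *Tbx15* ratio 0.716.

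From 4 to 7 dpf, a comparison that shares its libraries with those above, 0 of 8 members were past 2-fold in the mesenchymal classes together, in control (3.70% of genes) or RA callus (3.38%). In control callus *Msx1* (0.622) and *Twist2* (0.688) were the members furthest below 1 and *Shox2* (1.08) furthest above. In RA callus *Shox2* (1.43), *Twist1* (1.35) and *Twist2* (1.34) were furthest above 1 and *Prrx2* was lowest, at 0.809. Within classes the calls were few. In control callus *Twist2* was lower at 7 dpf in tenocytes (34.4 and 13.1 CPM, 0.380, 0.275 to 0.521, 2.27% of genes lower by as much) and *Msx1* in precursors (25.3 and 11.5 CPM, 0.455, 0.371 to 0.556, 1.57% of genes). *Twist2* was also past 2-fold lower in control fibroblasts (55.5 and 24.0 CPM, 2.74% of genes), but fell short of it under part of the alternatives, as given below. In RA callus *Shox2* was higher at 7 dpf in tenocytes (2.64, 2.12 to 3.34, 3.78% of genes) and *Twist2* in precursors (2.07, 1.78 to 2.41, 2.76% of genes). The latter was 1.93 with the members among the clustering genes and 1.81 without integration, *Shox2* was 1.84 at a coarser resolution and *Msx1* 0.516 with a looser cell filter, so these 3 lie at the edge of 2-fold. Mural *Prrx2* was the 1 member past 2-fold higher in that class, on very few UMIs at 4 dpf, with a ratio of 9.41 in control (48 against 3 UMIs, 3.03 to 47.3, 2.42% of genes higher by as much) and 3.22 in RA callus (54 against 4 UMIs, 1.19 to 12.2, 4.00% of genes). The RA value rested on cells called doublets: without them the RA 7 dpf mural level was 2.70 CPM (13 UMIs) and the ratio 0.918 (0.284 to 3.86), while in control it was 8.06 (2.56 to 40.8).

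The members' profiles were compared over 26 sums of UMIs, 1 for each class in each library with enough cells, which share libraries and depth, so the correlations (Pearson's r of log2 CPM after adding 10 CPM) are descriptions. The closest pair was *Prrx1* and *Twist2* (0.86). Of the paralogs, *Prrx1* with *Prrx2* gave 0.24 and *Twist1* with *Twist2* 0.37, so these were not close. *Msx1* with *Msx2* gave 0.63, the highest value of either gene with another member. *Prrx2* was closer to *Pitx1* and *Tbx15* (0.78 each) and *Twist1* (0.77) than to *Prrx1*, and ran against *Msx1* (-0.61). With *Msx2* it gave -0.86, but *Msx2* reached at most 2.83 CPM in any of these sums. All r values of *Msx2* thus rest on few UMIs. Of the 5674 genes searched, those nearest to *Prrx1* were *Adgra2* (0.89), *Hdac7* (0.88) and *Cpt1a* (0.87), those nearest to *Prrx2* were *Mrc2*, *Clmp* and *Ptgfrn* (0.96 each), and those nearest to *Tbx15* were *Pdgfra* (0.94), *Fzd2* (0.93) and *Mid1* (0.92). *Twist1* was nearest to *Cpxm1* (0.94), *Ctsk* and *Ssc5d* (0.93 each), *Twist2* to *Ddr2* (0.88), *Rtn4* and *Axl* (0.87 each), and *Pitx1* to *Zfp462* (0.91), *Nucb2* (0.90) and *Srpx2* (0.89). *Msx1* was nearest to *Midn* (0.94), *Cebpb* and *Sik1* (0.92 each), and *Msx2*, on few UMIs, to *2310022B05Rik* and *Trp53i11* (0.91 each) and *Serpini1* (0.90). *Shox2* had no near neighbour, with *Tmf1* and *Dcaf10* at 0.75.

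**Figure D4:**
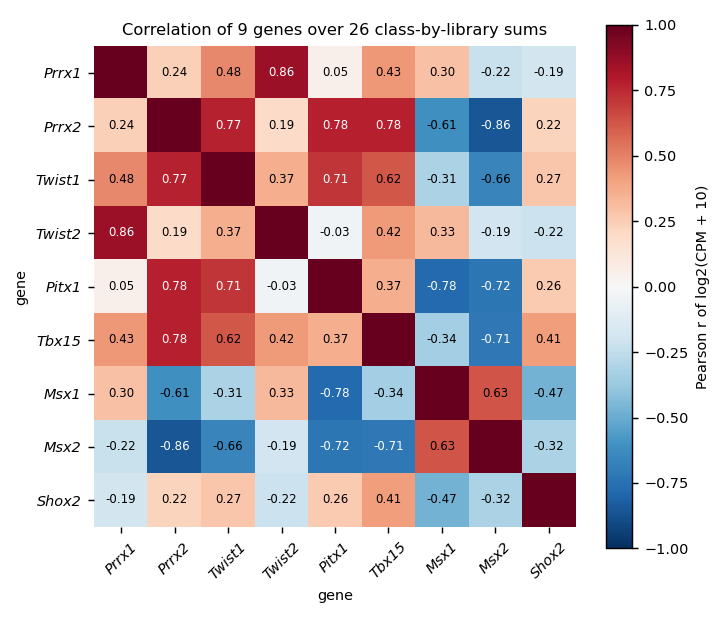
Pearson's r between the members' profiles (log2 of CPM plus 10) over 26 class-by-library sums. *Prrx1* and *Twist2* form the closest pair, at 0.86. The lowest value is *Prrx2* against *Msx2*, at -0.86, which rests on few *Msx2* UMIs.

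No stretch of 31 bases was shared between the transcripts of a paralog pair. Several lie over other annotated genes (GENCODE M21, GRCm38), namely *Prrx1*, *Twist2*, *Pitx1* and *Tbx15* over antisense RNAs and *Shox2* over part of *Rsrc1* on the other strand, and *Twist2* and *Pitx1* also over a noncoding RNA on their own strand, for which read assignment is less certain. *Prrx1* overlaps 2 further noncoding genes on its own strand that are not among the genes of the count tables. *Prrx1* lies on chromosome 1 from 163245119 to 163313710, *Prrx2* on chromosome 2 from 30834972 to 30881251, *Msx1* on chromosome 5 from 37820485 to 37824583 and *Msx2* on chromosome 13 from 53466884 to 53473074.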

How the data were processed

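The deposited files hold the authors' UMI counts per gene and cell, made with Cell Ranger 7.0.1 on mm10 from Chromium 3′ libraries. Whether intronic reads were counted is not given in the sources used here. Cells with 4000 to 50000 UMIs, 2000 to 7000 features and at most 8% mitochondrial UMIs were kept, as the study's methods state. The libraries were integrated and clustered with Seurat 5.3.0 (R 4.3.3, 2000 variable genes without the 9 members, 30 integration dimensions, 15 principal components, resolution 0.5, 21 clusters, 1 of them split), and doublets, called with Scrublet in scanpy 1.11.5 (Python 3.11.15), were kept. Thresholds for naming clusters by markers were set after seeing the clusters. The 9 members and all gene lists were chosen with earlier results of these data known. UMIs were summed per class and library as CPM with exact Poisson intervals, shares of cells had Clopper-Pearson intervals and ratios exact conditional intervals (scipy 1.17.1), all at 95%. Genes were compared where both libraries together held 50 UMIs and each at least 20 cells, and a gene was past 2-fold at a log2 ratio of 1 after adding 1 CPM. No gene test was run, since each condition was 1 library. The ratio and its interval were tried on counts simulated for the mesenchymal sums at 7 dpf. These counts held counting error alone, so the trial says nothing about variation between libraries or pools. All 9 members were reported, and of each list of other regulators up to 4 genes with the largest ratios at 10 CPM or more, plus *Tbx4* and *Tbx5*.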

Additional observations from a re-analysis of the deposited data

Results flagged for a closer look

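In some combinations of member and cell class, all listed below, the RA to control ratio lay on opposite sides of 1 at 4 and at 7 dpf. Both counting intervals were clear of 1 in each. The share of all genes that did so is not given, so the list is not read as a trait of these members. The difference between the days was not tested, since each ratio compares 1 library with 1 library. In the mesenchymal classes together this held for *Twist1*, at 0.931 on 4 dpf and 1.46 on 7 dpf, and for *Shox2*, at 0.916 and 1.22. *Shox2* had the same pattern in fibroblast precursors (0.889 and 1.19), fibroblasts (0.841 and 1.16), tenocytes (0.378 and 1.13) and mural cells (0.723 and 1.46). *Msx1* had it in precursors (0.707 and 1.46) and fibroblasts (0.827 and 1.76), *Twist1* in tenocytes (0.732 and 1.15), *Twist2* in precursors (0.724 and 1.60), *Tbx15* in fibroblasts (0.885 and 1.05) and *Prrx1* in mural cells (0.878 and 1.30). The opposite order, higher in RA at 4 dpf and lower at 7 dpf, was seen for *Prrx1* in tenocytes (1.13 and 0.809) and *Prrx2* in precursors (1.41 and 0.854). Under 6 alternatives chosen after seeing the data not all of these held. In the mesenchymal classes together the *Shox2* log2 ratio at 4 dpf went from -0.126 to 0.0745 with a looser cell filter. With classes weighted equally, a further alternative, it was 0.0187. The interval of *Msx1* in precursors at 4 dpf lay below 1 in 3 of 6 (ratios 0.689 to 0.996), that of *Shox2* in precursors in 4 of 6 at 4 dpf and above 1 in 5 of 6 at 7 dpf, and *Tbx15* in fibroblasts at 7 dpf (0.930 to 1.06) and *Prrx1* in tenocytes at 7 dpf (0.787 to 1.10) were each clear of 1 on the reported side in 4 of 6. *Prrx1* in mural cells and *Twist2* in precursors at 4 dpf were so in 5 of 6, as was *Prrx2* in precursors on both days. In the 4 dpf pair the 5 neutrophil markers summed to 20.02 CPM in the mesenchymal classes of control and 183 in those of RA callus (1 and 0 of them at 0) and the 4 erythroid markers to 485 and 22.7 CPM (0 and 1 at 0), and in the 7 dpf pair to 42 and 12.5 CPM and to 433 and 328 CPM. Their part in these ratios was not tested.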

How the results depend on the processing

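No paired analysis was possible because each condition is 1 library. The count of members past 2-fold in the mesenchymal classes stayed at 0 on both days under all 12 alternatives, and the class with the highest level over all libraries was the same for each of the 9 members under the 6 alternatives of clustering, filter and doublets. At 7 dpf all 9 log2 ratios kept their sign under all 11 alternatives, but their sizes moved. The largest shift of any of the 9 on the log2 scale was 0.304 with classes weighted equally and 0.178 with 10 CPM added in place of 1. At 4 dpf small ratios changed sign: *Shox2* was at 0.07 with a looser cell filter and 0.02 with classes weighted equally, and *Twist2* at 0.07 with classes weighted equally. *Pitx1*, *Msx1*, *Prrx2* and *Tbx15*, with reported 4 dpf log2 ratios between -0.0279 and 0.0585, also changed sign under at least 1 alternative. TMM scaling shifted all ratios by -0.06 at 4 dpf and 0.06 at 7 dpf on the log2 scale. Levels in chondrogenic cells were the least stable, since the looser filter gave 11.9 CPM for *Twist2* (3.96 in the reported analysis), 378 CPM for *Prrx1*, 106 CPM for *Prrx2*, 125 CPM for *Twist1* and 14.4 CPM for *Msx1*, and left 1 member past 2-fold lower there in place of 6. The *Prrx2* log2 ratio of 7 to 4 dpf in RA mural cells went from 1.41 to -0.091 without doublets. The 6 other member calls from 4 to 7 dpf kept their direction, but 4 of them fell short of 2-fold under 1 or 2 alternatives: the ratio nearest 1 was 0.516 for *Msx1* in control precursors, 1.81 for *Twist2* in RA precursors, 1.84 for *Shox2* in RA tenocytes and 0.549 for *Twist2* in control fibroblasts. Within classes, under 6 alternatives chosen after seeing the data, the ratio of *Twist2* at 7 dpf ran from 1.59 to 2.14 in fibroblasts and 1.78 to 2.29 in tenocytes, and that of *Msx1* in tenocytes at 4 dpf from 2.14 to 2.56. In cycling cells the *Twist2* ratio at 7 dpf ran from 1.71 to 2.42 and the *Msx1* ratio at 4 dpf from 1.51 to 2.19. Depth limits *Msx2* most.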

Other observations

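Other regulators of the same families and pathways, from lists of 25 limb patterning genes, 9 Twist partners and Id inhibitors and 4 EMT-type factors, had class patterns of their own. Mural cells held more of several T-box and Id genes: *Tbx2* was at 117 CPM against 5.29 in the mesenchymal classes, *Tbx3* at 101 against 16.0, *Id4* at 126 against 9.65 and *Id3* at 1271 against 248. Chondrogenic cells held more *Dlx5*, a homeobox gene of skeletal differentiation, than the other mesenchymal classes (34.8 against 4.32 CPM), and less *En1* (2.46 against 29.2 CPM) and *Zeb2* (113 against 592 CPM). Tenocytes held less *Irx5* (1.01 against 14.3 CPM) and *Zeb2* (90.1 against 567 CPM). *Tbx4*, the hindlimb T-box gene, was at 7.49 CPM in fibroblasts against 3.40 in the other mesenchymal classes.

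In RA against control callus 0 of 18 limb patterning genes compared were past 2-fold in the mesenchymal classes at 4 dpf, with 14 of 18 ratios above 1 (median log2 0.28), and 1 of 19 at 7 dpf, with 10 of 19 above 1 (median 0.00). Of all genes compared 53.6% had a ratio above 1 at 4 dpf (median log2 0.02, 1.73% past 2-fold) and 43.5% at 7 dpf (median -0.04, 2.91% past 2-fold). The 7 dpf exception was *Tbx5*, the forelimb T-box gene, at 0.355 CPM in control and 2.80 in RA callus (27 and 262 UMIs, ratio 7.90, 5.31 to 12.2). Most of its RA UMIs, 194, were in fibroblast precursors. None of the 8 Twist partners and Id inhibitors compared was past 2-fold on either day, with 7 of 8 ratios above 1 at 4 dpf (median log2 0.31) and 3 of 8 at 7 dpf (median -0.09), among them *Id1* at 1.45 and 0.605. Of the 4 EMT-type factors *Snai1* was at 1.46 at 4 dpf and 0.756 at 7 dpf and *Snai2* at 0.828 and 0.718. Each ratio is 1 library against 1.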
